A study of Mus musculus with 6 samples.

Results

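The genes of cholesterol synthesis and transport were compared between brainstems of wild type (WT) and Rag1-/- mice. Members were the 33 genes listed by symbol for this pathway, and a gene was kept where its mean over the libraries was at least 0.1 CPM (gene counts scaled to library size). All 33 were found among the 18058 genes of the deposited table and all 33 passed. They comprised 7 enzymes of the mevalonate arm, 12 enzymes that make squalene and work the sterol ring, 5 genes that control synthesis, 5 genes of efflux, turnover and storage, and 4 genes of uptake and movement within the cell.

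Total RNA came from whole, snap-frozen brainstems of mice aged 1 month, with 3 WT (C57BL/6J) and 3 Rag1-/- (B6.129S7-Rag1tm1Mom/J) animals, each a separate mouse. The RAG1 protein cuts DNA when the genes of antigen receptors are joined, and without it neither T nor B lymphocytes mature. A whole brainstem mixes neurons and glia, so fewer cells of a type and less RNA per cell cannot be told apart in these values.

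Several facts about the libraries touch the results. WT libraries held 0.236, 0.388 and 0.115 CPM of Rag1 itself, and those labelled Rag1-/- held 2.60, 4.02 and 2.90 CPM, more and not less (log2 fold change 3.30, adjusted p = 0.0120, limma-trend). Since reads were summed over the whole gene, whether these lie outside its deleted part was not tested. The second group is therefore called by its label, and each direction rests on that label. The X-inactivation transcript Xist reached 172 and 177 CPM for WT replicates 1 and 2 but 2.93 CPM or less elsewhere, while the labels give no sex. Ddx3y, a gene of the Y chromosome, was at 0.283 and 0.215 CPM in those libraries and 45.2 CPM in WT replicate 3. It was at 53.4, 55.1 and 56.2 CPM in the labelled Rag1-/- libraries. By these genes WT replicates 1 and 2 were female and all other libraries male, so sex and genotype cannot be fully told apart. Cbln3, a marker of cerebellar granule cells, was at 108 CPM in WT replicate 3 and 28.7 CPM in labelled Rag1-/- replicate 2, against 6.01 to 9.59 CPM elsewhere, and the hindbrain gene Hoxb5 was at 0.855 CPM in labelled Rag1-/- replicate 2 against 4.77 to 14.3 CPM elsewhere. The depth, estimated from the step that stands for 1 read, was 34800000 to 46400000 reads in WT and 31600000 to 35100000 reads in the labelled Rag1-/- libraries. The lowest member then rested on at least 309 reads in every library, so no member was near the limit of detection.

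As background, the brain makes nearly all of its own cholesterol, since the blood-brain barrier keeps lipoproteins of the blood out, and in young animals most of it goes into myelin, the membrane that oligodendrocytes wrap around axons. Acetyl-CoA is turned into mevalonate and then into isoprene units, which are joined to squalene, closed into the ring of lanosterol and trimmed to cholesterol. When membrane cholesterol is low, SCAP escorts the SREBP transcription factors (encoded by Srebf1 and Srebf2) to the Golgi for cleavage, and SREBP-2 then binds sterol regulatory elements beside CCAAT and GC boxes in the promoters of the enzymes. INSIG1 holds SCAP back when sterols are ample. When oxysterols build up, LXR receptors (LXR beta is encoded by Nr1h2) switch on the exporters Abca1 and Abcg1.

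Promoter windows from RefSeq (GRCm38.p6, the assembly also called mm10; 250 bases before to 50 bases after the start of transcription) were found for 27 of the 33 members, all but Fdps, Fdft1, Sqle, Abcg1, Npc1 and Stard4. Shown here are the 250 bases upstream of 4 enzymes with differences among the largest, of Insig1, a feedback gene, and of Lrp1, a receptor that differed the other way. Each runs 5′ to 3′ in the direction of its gene. Capitals mark the sterol regulatory element core (CACNCCAC, or TCACNCCAC where the longer form was found) and the CCAAT box, on either strand, so that a match on the opposite strand appears as the reverse complement. Hmgcs1 lies at chr13:119690101-119690350 (plus strand), Idi1 at chr13:8885356-8885605 (plus), Lss at chr10:76531355-76531604 (plus), Cyp51 at chr5:4104698-4104947 (minus), Insig1 at chr5:28071162-28071411 (plus) and Lrp1 at chr10:127621149-127621398 (minus).
Hmgcs1: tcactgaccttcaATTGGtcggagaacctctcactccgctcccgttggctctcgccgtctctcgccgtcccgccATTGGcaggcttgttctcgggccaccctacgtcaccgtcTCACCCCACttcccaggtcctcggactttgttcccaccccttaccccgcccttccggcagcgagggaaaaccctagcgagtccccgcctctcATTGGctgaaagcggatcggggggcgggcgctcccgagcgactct
Idi1: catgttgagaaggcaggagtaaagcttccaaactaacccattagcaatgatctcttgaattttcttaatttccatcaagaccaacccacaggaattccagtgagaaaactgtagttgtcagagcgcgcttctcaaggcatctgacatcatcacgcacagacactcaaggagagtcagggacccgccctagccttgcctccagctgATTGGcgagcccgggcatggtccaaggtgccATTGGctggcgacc
Lss: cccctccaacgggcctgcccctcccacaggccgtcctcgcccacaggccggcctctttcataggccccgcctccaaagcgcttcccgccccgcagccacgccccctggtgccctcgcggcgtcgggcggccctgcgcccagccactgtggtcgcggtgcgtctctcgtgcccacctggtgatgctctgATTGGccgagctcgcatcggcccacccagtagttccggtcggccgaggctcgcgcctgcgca
Cyp51: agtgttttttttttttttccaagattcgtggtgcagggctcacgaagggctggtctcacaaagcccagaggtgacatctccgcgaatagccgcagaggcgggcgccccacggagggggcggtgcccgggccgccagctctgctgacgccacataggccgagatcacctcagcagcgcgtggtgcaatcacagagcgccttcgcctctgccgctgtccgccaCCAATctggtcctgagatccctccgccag
Insig1: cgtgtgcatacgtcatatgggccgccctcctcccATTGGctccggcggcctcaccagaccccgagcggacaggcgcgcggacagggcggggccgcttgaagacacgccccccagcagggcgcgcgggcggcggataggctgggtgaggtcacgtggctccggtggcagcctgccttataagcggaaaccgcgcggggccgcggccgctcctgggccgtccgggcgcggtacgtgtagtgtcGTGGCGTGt
Lrp1: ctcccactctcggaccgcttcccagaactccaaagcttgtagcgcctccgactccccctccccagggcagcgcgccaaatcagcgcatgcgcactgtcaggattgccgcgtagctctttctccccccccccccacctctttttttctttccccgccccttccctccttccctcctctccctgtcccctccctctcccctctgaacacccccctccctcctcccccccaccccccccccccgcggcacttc

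The Hmgcs1 promoter was the only member window with the longer core TCACNCCAC, which began 137 bases before the start and was found in 1.24% of all 32851 RefSeq windows and 1.15% of the 16232 windows of tested genes. The shorter core CACNCCAC, which also counts that site, was found in Acat2, Hmgcs1 and Insig1, against 6.43% of the windows of tested genes. CCAAT boxes were more frequent. They were found in at least 1 window of 15 of the 16 enzymes matched, Acat2 being the exception, and in 78.9% of the enzymes' 19 windows, against 37.4% of the windows of tested genes. Most lay close to the start, as in Cyp51 (29 bases before it), Idi1 (14 and 45 bases) and Lss (62 bases). The GC box GGGCGG, not marked above, was found in 84.2% of the enzymes' windows against 58.1% for tested genes. The Lrp1 window held 1 GC box and neither of the other motifs. These are matches of letters in a window and do not show that a factor binds there.

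**Figure D1:**
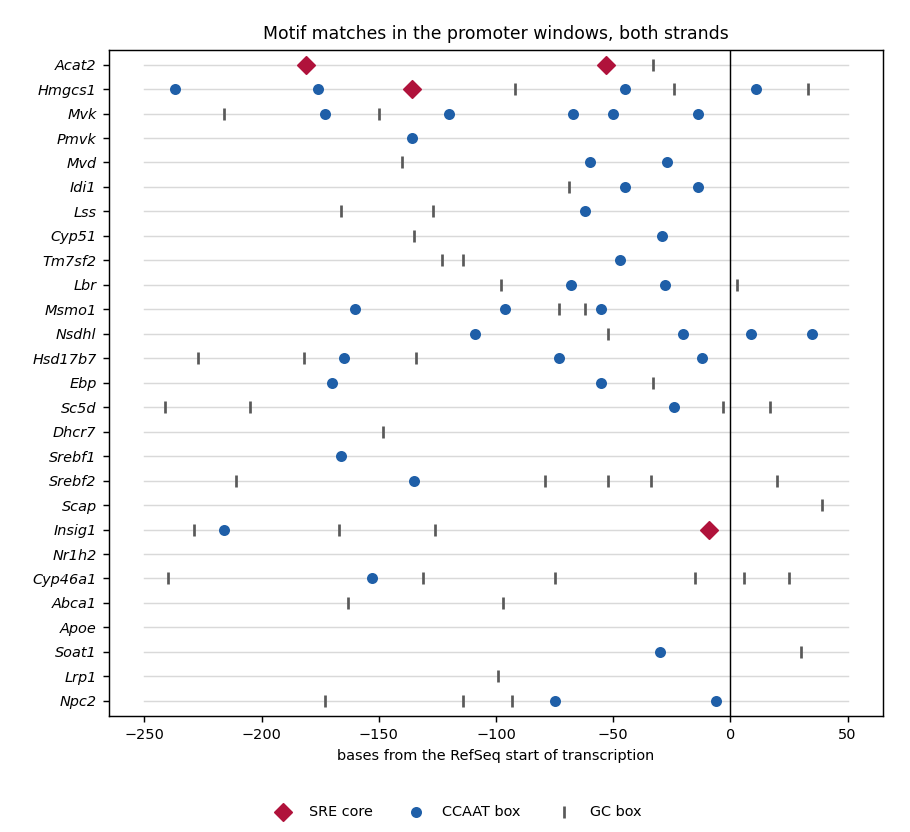
Motif matches on either strand in the first RefSeq promoter window of the 27 matched members; the x axis is the distance in bases from the start of transcription (vertical line), diamonds are the core CACNCCAC, circles CCAAT and ticks GGGCGG. Most CCAAT matches of the enzymes (upper rows) lie within 100 bases upstream of the start, and the rows of Acat2, Dhcr7, Scap, Nr1h2, Abca1, Apoe and Lrp1 have none.

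Of the 19 enzymes of cholesterol synthesis, 18 had a higher mean in the libraries labelled Rag1-/-, with a median log2 fold change of 0.18 (13.6%), a smallest value of -0.15 for Lbr and a largest of 0.33 for Idi1. The median over all tested genes was -0.05. Summed over the 19 enzymes, WT libraries held 1399, 1558 and 1353 CPM and the labelled Rag1-/- libraries 1690, 1650 and 1676 CPM, 16.4% more on the mean (1437 ± 107.5 against 1672 ± 20.1, SD, n = 3). The 2 groups of sums did not overlap.

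No single member passed the test across all genes. The fit was limma-trend on log2(CPM + 0.1) for 16762 genes with Benjamini-Hochberg adjustment, in which 0 of the 33 members and 8 genes in all (0.0477%) had an adjusted p under 0.05, and the smallest adjusted p of a member was 0.249. At an unadjusted p of at most 0.05, 14 of the 33 members were higher in the labelled Rag1-/- libraries, where 2.27% of all tested genes were, and 2 were lower, where 9.29% of all tested genes were. In 15 members every labelled Rag1-/- value lay above every WT value (3.98% of all tested genes), and in 2 every value lay below (14.4%). For each of these 17 the exact two-sided permutation p was 0.1, the smallest that 3 against 3 allow. The split over all genes rested on the scaling: after quantile normalization 5.09% were higher and 3.84% lower, and after median-of-ratios rescaling 5.07% and 4.10%. With these, 17 and 18 members were higher and 1 was lower in each. Allowing for high Xist (over 100 CPM, 2 libraries) as a second term, which leaves WT replicate 3 as the only WT library compared at like Xist and so rests on the library with the highest cerebellar markers, gave 1 member, Idi1, an adjusted p of 0.0233 in limma-trend, and the same term raised the number of all tested genes with an adjusted p under 0.05 from 8 to 134.

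**Figure D2:**
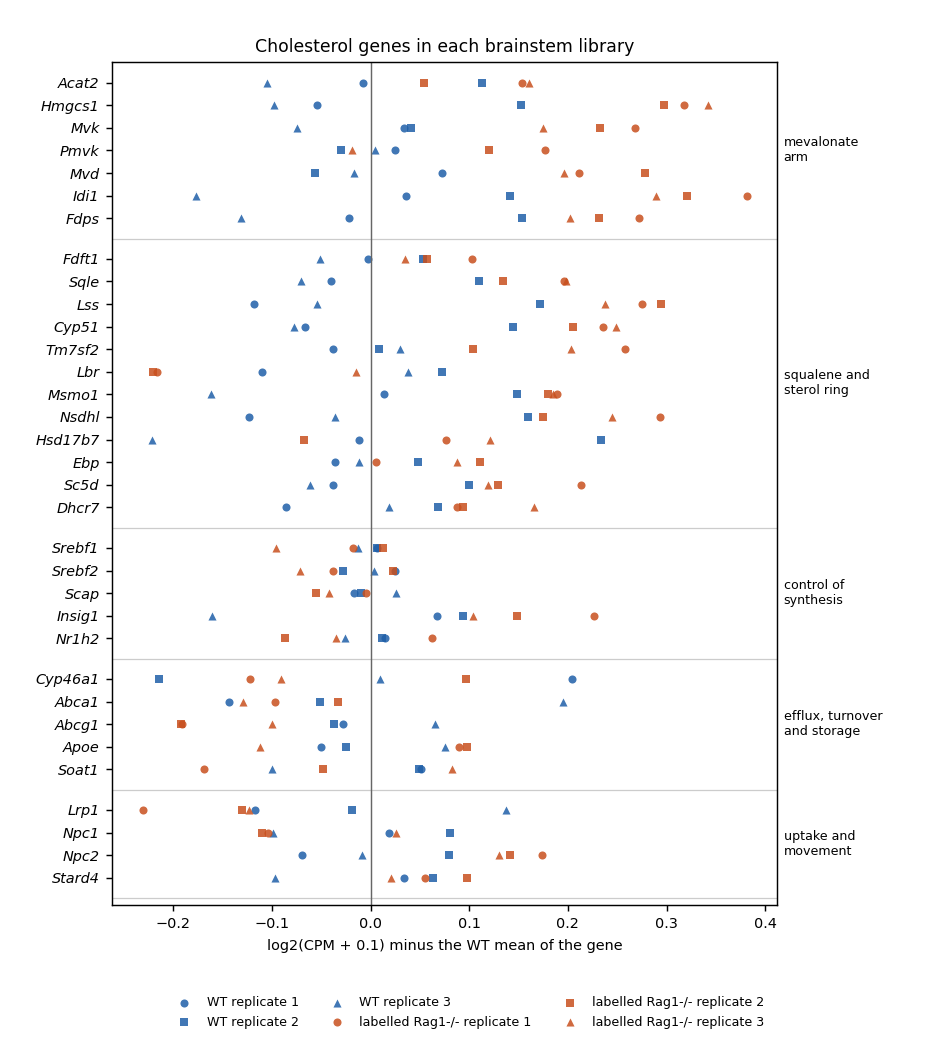
Each member in each of the 6 libraries as log2(CPM + 0.1) minus its WT mean (x axis), with blue for WT, orange for labelled Rag1-/- and circle, square and triangle for replicates 1, 2 and 3. In the 2 upper blocks, the enzymes, orange symbols lie to the right for 18 of 19 genes by their mean, and WT replicate 2 (blue squares) is often the WT library nearest to them.

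The mevalonate arm carried the largest differences. All 7 enzymes had a higher mean in the labelled Rag1-/- libraries, 5 of them at an unadjusted p of at most 0.05 and without overlap, and their summed level was 21.4% higher. Most of the difference in the sum came from Hmgcs1. Its mean was 438 CPM in WT and 545 CPM in the labelled Rag1-/- libraries, against sums of 713 and 865 CPM. Hmgcs1 (chr13:119690351-119708260, plus strand), which makes HMG-CoA, stood at 421, 486 and 408 CPM in WT and at 545, 537 and 554 CPM in the labelled Rag1-/- libraries. Even the highest WT library, replicate 2, stayed below all 3. The log2 difference was 0.32 (standard error 0.07, adjusted p = 0.249, limma-trend), or 24.7% with a 95% interval of 12.5% to 38.3%. Idi1 (chr13:8885606-8892396, plus strand), which interconverts the pair of isoprene building blocks, was at 83.8, 90.2 and 72.3 CPM in WT and 106, 102 and 99.9 CPM in the labelled Rag1-/- libraries. Its log2 difference of 0.33, with a standard error of 0.08 (adjusted p = 0.289), was the largest of any member and its WT libraries were spread more widely than the other group.

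The remaining mevalonate genes differed by less. Mvk, mevalonate kinase, was at 22.8, 22.9 and 21.1 CPM in WT and 26.8, 26.2 and 25.1 CPM in the labelled Rag1-/- libraries, 16.9% higher (95% interval 6.93% to 27.8%). Mvd, which decarboxylates the product of the kinases, was at 29.97, 27.40 and 28.17 CPM against 33.01, 34.56 and 32.66 CPM, 17.2% higher (7.68% to 27.5%). Fdps, which joins the isoprene units to farnesyl diphosphate, was at 52.2, 59.0 and 48.4 CPM against 64.1, 62.3 and 61.0 CPM, 17.7% higher (5.46% to 31.4%). In each of these 3 the groups did not overlap, and the adjusted p lay between 0.300 and 0.340. Acat2, which condenses acetyl-CoA, and Pmvk, phosphomevalonate kinase, overlapped between the groups, with log2 fold changes of 0.12 and 0.09 and intervals that include 0. Pmvk was at 46.2, 44.4 and 40.3 CPM in the labelled Rag1-/- libraries, and replicate 3 sat within the WT range of 40.04 to 41.60 CPM.

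**Figure D3:**
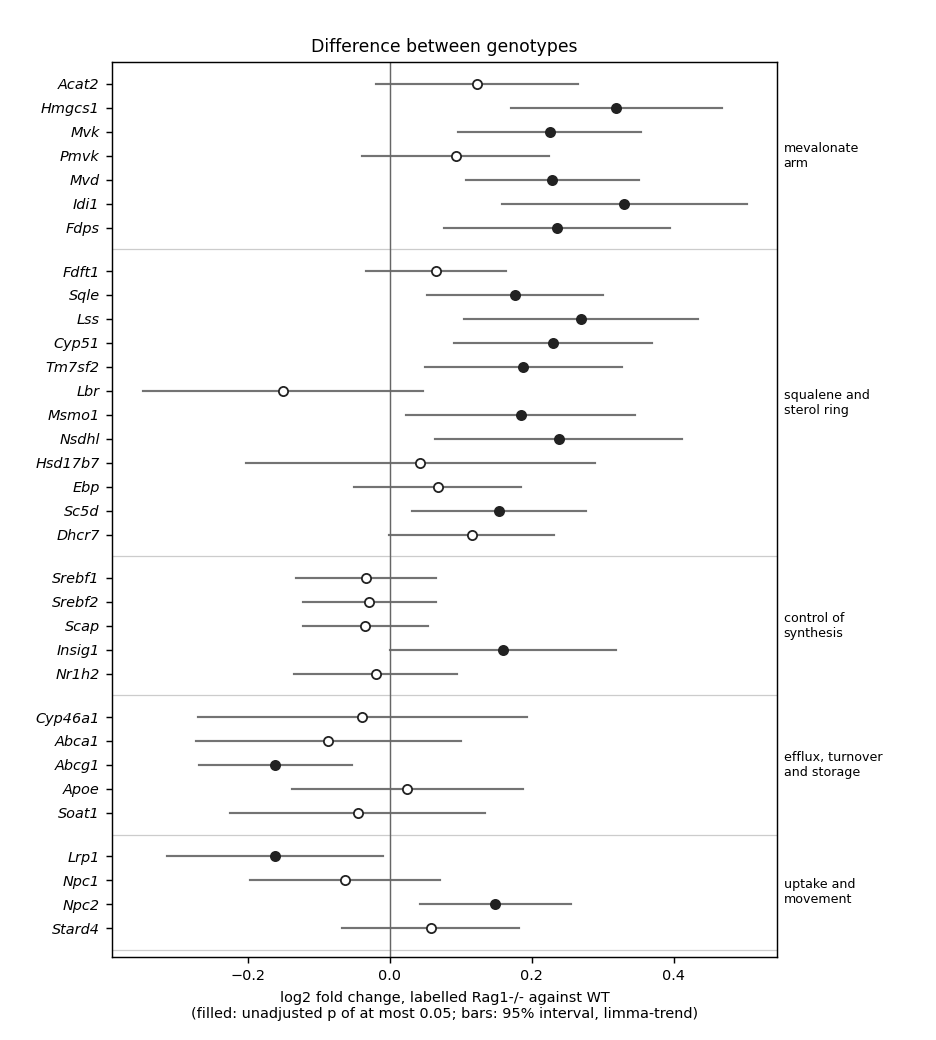
The log2 fold change of each member, labelled Rag1-/- against WT (x axis), with its 95% interval from limma-trend; filled circles have an unadjusted p of at most 0.05. Intervals of 12 enzymes, Insig1 and Npc2 lie above 0 and those of Abcg1 and Lrp1 below it, and no member had an adjusted p under 0.05.

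Among the 12 enzymes from squalene to cholesterol, 11 had a higher mean in the labelled Rag1-/- libraries, 7 at an unadjusted p of at most 0.05, and 8 did not overlap. Their summed level was 11.4% higher. Lss (chr10:76531605-76557139, plus strand), which folds oxidized squalene into lanosterol, was at 40.5, 49.5 and 42.3 CPM in WT and 53.2, 53.9 and 51.8 CPM in the labelled Rag1-/- libraries. It had the largest difference of these enzymes, 0.27 on the log2 scale with a standard error of 0.07 (adjusted p = 0.331, limma-trend). Cyp51 (chr5:4080674-4104697, minus strand), the lanosterol demethylase, was at 130, 151 and 129 CPM in WT and 160, 157 and 162 CPM in the other group, a log2 fold change of 0.23 (adjusted p = 0.331). In both genes WT replicate 2 was the WT library nearest to the labelled Rag1-/- range.

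Nsdhl, an X-linked enzyme that removes methyl groups from the ring, was at 24.1, 29.3 and 25.6 CPM in WT and 32.2, 29.7 and 31.1 CPM in the labelled Rag1-/- libraries. The gap between the groups was small, since labelled Rag1-/- replicate 2 lay just above WT replicate 2. Sqle, the monooxygenase that adds oxygen to squalene, was at 82.2, 91.2 and 80.5 CPM in WT against 96.8, 92.8 and 96.9 CPM, and Tm7sf2, a sterol reductase, was at 17.1, 17.7 and 18.0 CPM against 21.1, 18.9 and 20.3 CPM. Msmo1, which acts on methyl groups of the ring after Cyp51, was at 91.4, 100.3 and 80.9 CPM in WT and, with almost no spread, at 103.2, 102.6 and 102.9 CPM in the labelled Rag1-/- libraries. Sc5d, a sterol desaturase, was at 81.9, 90.1 and 80.6 CPM in WT and 97.5, 92.0 and 91.4 CPM in the other group. These 5 were 11.2% to 17.9% higher with adjusted p from 0.351 to 0.393.

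Dhcr7, the last reductase of one branch of the path, was the enzyme without overlap that missed the threshold, at 64.9, 72.3 and 69.8 CPM in WT against 73.3, 73.6 and 77.3 CPM (unadjusted p = 0.0509, limma-trend; exact permutation p = 0.1). Fdft1, which makes squalene, the sterol isomerase Ebp and the reductase Hsd17b7 overlapped between the groups, with log2 fold changes of 0.04 to 0.07. Hsd17b7 was the least certain, since its 95% interval ran from -13.1% to 22.1%. Lbr was the 1 enzyme with a lower mean, at 10.57, 12.02 and 11.73 CPM in WT and 9.82, 9.79 and 11.3 CPM in the labelled Rag1-/- libraries, with groups that overlapped. The protein of Lbr has the same reductase activity as that of Tm7sf2 and also anchors chromatin at the nuclear envelope.

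**Figure D4:**
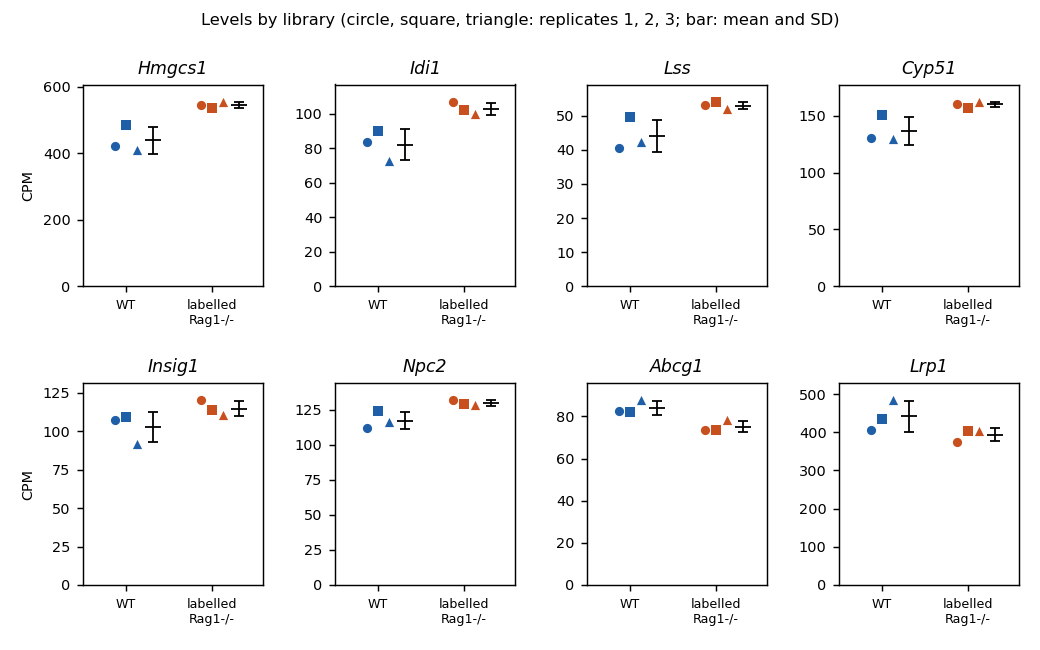
CPM (y axes, from 0) of 8 members by library, with circle, square and triangle for replicates 1, 2 and 3 and bars for the mean and SD of each group of 3. The labelled Rag1-/- values lie above the WT values for Hmgcs1, Idi1, Lss, Cyp51, Insig1 and Npc2 and below them for Abcg1 and Lrp1.

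Of the 5 genes that control synthesis, 1, Insig1, was higher at an unadjusted p of at most 0.05, and the other 4 had means slightly lower. Srebf2, the main activator of the enzymes, was at 204, 197 and 202 CPM in WT and 196, 204 and 191 CPM in the labelled Rag1-/- libraries, a difference of -1.98% (95% interval -8.13% to 4.58%). Srebf1, which favours fatty acid genes, Scap and Nr1h2 lay within -0.03 to -0.02 on the log2 scale, and the sign of all 4 turned positive after quantile normalization or median-of-ratios rescaling. The 95% intervals of all 4 included 0. Insig1 (chr5:28071412-28078662, plus strand), itself a target of SREBP, was at 108, 110 and 91.9 CPM in WT and 120, 114 and 110 CPM in the other group. The lowest labelled Rag1-/- value exceeded the highest WT value by little, and the log2 fold change of 0.16 (unadjusted p = 0.0494, adjusted p = 0.431, limma-trend) was 0.08 without WT replicate 3. The unadjusted p was above 0.05 with either other pseudocount (0.0507 and 0.0501), either other filter (0.0548 and 0.0530) and either other variance model (0.110 and 0.145), and below it with quantile normalization (0.0276), median-of-ratios rescaling (0.0194), a replicate block (0.0288) and the term for Xist (0.000734, log2 fold change 0.32).

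Abcg1 (chr17:31057694-31117981, plus strand), an exporter of sterols that LXR receptors switch on, was lower in the libraries labelled Rag1-/-. It was at 82.4, 81.9 and 87.9 CPM in WT and at 73.6, 73.5 and 78.4 CPM in the labelled Rag1-/- libraries, with no overlap. The difference was -0.16 on the log2 scale (standard error 0.05, adjusted p = 0.340, limma-trend), or -10.6% with a 95% interval of -17.0% to -3.62%. Abcg1 was at -0.12 after quantile normalization and -0.116 after median-of-ratios rescaling (unadjusted p = 0.0307 and 0.0366, limma-trend). Of all tested genes, 9.29% were lower at an unadjusted p of at most 0.05. Abca1, the other exporter under LXR control, was at 40.9, 43.6 and 51.7 CPM in WT and 42.3, 44.2 and 41.3 CPM in the other group, so the groups overlapped. Its log2 fold change of -0.09 was -0.28 with the term for Xist, a value that rests on WT replicate 3, the WT library with the highest Abca1 and Cbln3, and it was 0.01 without that library. Cyp46a1, the neuronal enzyme that makes 24-hydroxycholesterol and so clears cholesterol from the brain, was at 98.2, 73.4 and 85.8 CPM against 78.3, 91.1 and 80.0 CPM, with a 95% interval of -17.1% to 14.3%. Apoe, which encodes the main apolipoprotein of the brain, was at 1697, 1726 and 1851 CPM in WT and 1869, 1879 and 1625 CPM in the other group (1.74%, -9.14% to 13.9%). Soat1, which esterifies cholesterol for storage, differed by -0.05 on the log2 scale and overlapped. The signs for Cyp46a1 and Soat1 turned positive after median-of-ratios rescaling, and that for Soat1 also after quantile normalization.

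The genes of uptake and movement went both ways. Lrp1 (chr10:127538158-127621148, minus strand), a large receptor that takes up lipoproteins carrying ApoE, was at 406, 434 and 484 CPM in WT and 375, 402 and 404 CPM in the other group. The gap between the groups was under 2 CPM, and the log2 fold change of -0.16 (unadjusted p = 0.0397, adjusted p = 0.415, limma-trend) was -0.09 without WT replicate 3. The unadjusted p was 0.0769 after quantile normalization and 0.112 after median-of-ratios rescaling. The fold was -0.22 without WT replicate 1 and -0.30 with the term for Xist (unadjusted p = 0.00992 and 0.00238, limma-trend). Npc2, which hands cholesterol on inside the lysosome, was higher, at 112, 124 and 116 CPM in WT and 132, 129 and 128 CPM in the other group (log2 fold change 0.15, adjusted p = 0.354). Its partner in the lysosomal membrane, Npc1, was at 117.8, 122.97 and 108.6 CPM against 108, 108 and 118 CPM and overlapped. Stard4, a carrier of sterol between membranes, differed by 0.06 on the log2 scale, and its groups overlapped too.

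The spread within the groups was uneven. Among the 19 enzymes, WT replicate 2 was the highest WT library for 16 and WT replicate 3 the lowest for 11, and the SD was smaller in the labelled Rag1-/- libraries for 15. All 3 labelled Rag1-/- values exceeded both WT replicates 1 and 3 for 16 enzymes. Measured as the median difference from the WT mean over the 19 enzymes, WT replicates 1, 2 and 3 stood at -0.04, 0.11 and -0.06 and labelled Rag1-/- replicates 1, 2 and 3 at 0.21, 0.13 and 0.18 on the log2 scale. WT replicate 2, with a median of 0.11, was therefore closer to labelled Rag1-/- replicate 2 than to the other WT libraries. Leaving out 1 library at a time left 9 to 14 of the 19 enzymes higher at an unadjusted p of at most 0.05, fewest without WT replicate 1 or labelled Rag1-/- replicate 1.

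The other genes of the pathway came from further lists of 50 genes. All 50 were tested and 0 had an adjusted p under 0.05 by limma-trend, while 5 were higher and 4 lower at an unadjusted p of at most 0.05, with a median log2 fold change of -0.02. Of all tested genes, 2.27% were higher and 9.29% lower at that threshold, so the count of lower genes was near the background. None of the 4 lower genes, Erlin2, Rxrb, Abca7 and Lrp8, stayed under the threshold in limma-trend after quantile normalization or median-of-ratios rescaling. Aacs, a ligase that feeds ketone bodies into lipid synthesis, was 0.13 higher on the log2 scale, and Erlin2, which helps degrade proteins of the endoplasmic reticulum, differed by -0.11. The groups did not overlap for either gene, nor for Mbtps1, a protease that cleaves SREBP, whose log2 fold change of -0.08 did not pass.

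Among 14 further genes of uptake and movement, Lrp8, a receptor for ApoE and reelin, was the 1 that was lower at an unadjusted p of at most 0.05, at 51.8, 45.0 and 52.1 CPM against 44.9, 43.3 and 42.4 CPM, while Osbp, an oxysterol binding protein, had no overlap at -0.08 on the log2 scale without passing. Of 13 genes of oxysterols, LXR and efflux, 0 were higher and 2, Rxrb (-0.12), a partner of the LXR receptors, and Abca7 (-0.21), a lipid transporter, were lower (unadjusted p = 0.0328 and 0.0315, limma-trend), against the 9.29% of all tested genes. With a replicate block these p were 0.0680 and 0.0666. Of 9 fatty acid genes under SREBP-1, Fads2, a desaturase, was higher by 0.14 with overlapping groups (unadjusted p = 0.0447, and 0.0744 with a replicate block, limma-trend), and Fasn, fatty acid synthase, was at 376, 397 and 388 CPM in WT and 368, 370 and 379 CPM in the other group.

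Most markers of myelinating oligodendrocytes also had higher means, though 0 of 17 had an adjusted p under 0.05 by limma-trend (smallest 0.258). Of the 17, 13 were higher at an unadjusted p of at most 0.05 (2.27% of all tested genes) and 12 without overlap (3.98%), with a median log2 fold change of 0.22, and their summed level was 22691 to 26232 CPM in WT and 28692 to 30046 CPM in the labelled Rag1-/- libraries, 20.8% more. Mbp, myelin basic protein, was at 7193, 8529 and 8333 CPM in WT and at 11199, 10160.0 and 9263 CPM in the other group. Mog, a protein of the outer myelin surface, was at 293, 339 and 298 CPM against 369.9, 370.25 and 388.1 CPM. Trf, Aspa, Myrf and Ermn did not pass, at -0.02, 0.01, 0.02 and 0.12 on the log2 scale. WT replicate 2 had the highest sum of the WT libraries for both the enzymes and the oligodendrocyte markers. Of 5 markers of oligodendrocyte precursors, 3 were higher, Gpr17, Enpp6 and Bmp4, which mark precursors that have begun to differentiate, while Pdgfra and Cspg4 had lower means, with log2 fold changes of -0.05 and -0.14. Of 11 astrocyte markers 1, Aqp4, was higher, and their summed level was 4663 to 4999 CPM in WT and 5012 to 5181 CPM in the other group, without overlap. Their median log2 fold change was 0.02 and 4 had a lower mean, Gfap and Slc1a3 at -0.12 among them, and Slc1a2 made up most of the difference in the sum. Of 12 neuron, 9 microglia and 5 endothelial markers 0 had an unadjusted p of 0.05 or less by limma-trend. Of 5 choroid plexus markers 2 were lower at an unadjusted p of at most 0.05, where 9.29% of all tested genes were lower. The sum of the 5 was 479 to 1215 CPM in WT and 545 to 621 CPM in the other group. The part of any of these differences in cell markers in the results for the cholesterol genes was not tested.

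**Figure D5:**
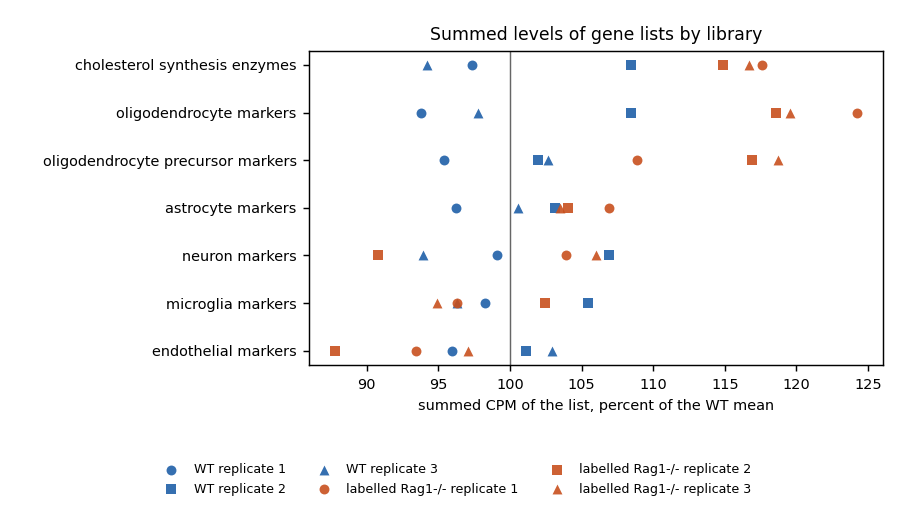
Summed CPM of the 19 enzymes and of 6 marker lists in each library, as percent of the WT mean of the list (x axis), with symbols as in the plot of members by library. The sums of the enzymes and of the oligodendrocyte, precursor and astrocyte markers all lie higher in the labelled Rag1-/- libraries without overlap (astrocyte markers by 4.81%, with a median log2 fold change of 0.02 over that list), and the neuron, microglia and endothelial sums overlap between the groups.

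The libraries with the highest cerebellar markers, WT replicate 3 and labelled Rag1-/- replicate 2, were left out together in a fit chosen after the data were seen. In the 4 remaining libraries 11 members were higher and 0 lower at an unadjusted p of at most 0.05 by limma-trend, where 2.47% of all tested genes were higher and 9.20% lower. Of the 19 enzymes 10 were higher, and their median was 0.16. Abcg1 was then at -0.11 and Lrp1 at -0.11 on the log2 scale. Among the 4 libraries with low Xist, the medians over the enzymes given above were -0.06 for WT replicate 3 and 0.13 to 0.21 for the libraries labelled Rag1-/-.

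Compared per length, with each gene's CPM divided by the kilobases of its longest protein-coding transcript, the members spanned a wide range in WT brainstem. Apoe was highest at 1249 ± 58.2 CPM per kilobase (SD, n = 3), followed by Hmgcs1 at 126.5 ± 11.99, Msmo1 at 44.5 ± 4.75, Cyp46a1 at 40.5 ± 5.84 and Srebf2 at 39.6 ± 0.728. The libraries of the last 3 overlap, at 39.6 to 49.1, 34.7 to 46.4 and 38.8 to 40.3 CPM per kilobase. Abca1, Lbr and Soat1 were lowest at 4.43 ± 0.549, 3.26 ± 0.218 and 2.29 ± 0.136. Among the enzymes, Hmgcs1 was the most abundant by this measure and Lbr the least. Where a gene's main brainstem transcript is shorter than the longest one, its level per kilobase is understated.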

How the data were processed

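RNA sequencing of brainstem from 3 WT and 3 Rag1-/- mice was used. Per the labels and the study's methods, the authors sequenced on an Illumina HiSeq, demultiplexed with bcl2fastq, aligned with STAR 2.5.3a to mm10, counted on RefSeq transcripts in Partek Flow and deposited CPM values, the lowest of which is 1e-04. Summed over the deposited genes, each library came to 79.1% to 80.4% of its scaling total. Between 85.8% and 87.6% of low values were whole reads within 0.1 read, so reads were not recovered and no count test was run. Intervals reflect the spread between mice, with the variance of each gene drawn towards that of genes of like level by limma-trend.

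Tests used log2(CPM + 0.1), a scale on which changes of low genes are understated. Genes averaging at least 0.1 CPM (16762) entered limma-trend (limma 3.58.1, R 4.3.3), the model the methods name, with Benjamini-Hochberg adjustment over all of them, and 1296 genes were not tested. An exact two-sided permutation test was applied to single genes as well. Percent changes are of (CPM + 0.1). Gene ends are given as 1 base before the deposited stop.

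The members and all lists were chosen with earlier results of these data known, so no p is adjusted over a list and no list was tested. All members were named, and other pathway genes where the unadjusted p was at most 0.05 or the groups did not overlap. Some of these are not reported here, though counts over the lists include them. Motifs were searched on both strands. Transcript lengths came from GENCODE M21. Same-numbered libraries were not taken as pairs, since their deviations correlated at 0.0926, -0.22 and -0.0183. Alternatives were other pseudocounts, filters, scalings and variance models, a replicate block, a term for Xist, and leaving out libraries.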

Additional observations from a re-analysis of the deposited data

How the results depend on the processing

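No member had an adjusted p under 0.05 in any setting run except the term for libraries with Xist over 100 CPM (1, Idi1). Members higher at an unadjusted p of at most 0.05 numbered 14, against 9 with ordinary per-gene variance and 10 to 16 with 1 library left out. Members lower numbered 2, against 1 with quantile normalization, median-of-ratios rescaling, limma without trend or ordinary per-gene variance, 3 with the Xist term (Abcg1, Lrp1 at -0.299 and Abca1 at -0.281), 1 to 2 with 1 library left out (1 without WT replicate 2, WT replicate 3, labelled Rag1-/- replicate 1 or labelled Rag1-/- replicate 2), and 0 in limma-trend without WT replicate 3 and labelled Rag1-/- replicate 2 together, a setting chosen after seeing the data. Members without overlap were 15 higher and 2 lower, against 1 lower with either rescaling. With 1 library left out they were 15 to 18 higher and 2 to 4 lower (4 without any 1 of the labelled Rag1-/- libraries), and 4 were lower without both libraries. Leaving libraries out can only keep or raise these counts, since groups that do not overlap cannot start to overlap. The counts with libraries left out are therefore no check of the result. The members' median log2 fold change of 0.09 became 0.139 with quantile normalization, 0.138 with median-of-ratios rescaling, 0.155 with the Xist term and 0.0704 to 0.150 with 1 library left out. The enzymes' median of 0.18 ranged from 0.141 to 0.204 with 1 library left out. With a replicate block, 14 members were higher and 2 lower, 0 had an adjusted p under 0.05 (smallest 0.548), and no count of members moved.

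Hmgcs1, Idi1, Mvk, Mvd, Sqle, Lss and Cyp51 were higher at an unadjusted p of at most 0.05 in all settings run, with the adjusted p of Hmgcs1 from 0.0519 (without WT replicate 2) to 0.707 (without labelled Rag1-/- replicate 1). Signs turned in genes near 0. Quantile normalization gave Srebf1 0.00778, Srebf2 0.0106, Scap 0.00187, Nr1h2 0.0316 and Soat1 0.00187. Median-of-ratios rescaling gave Srebf1 0.0118, Srebf2 0.0168, Scap 0.0113, Nr1h2 0.0258, Cyp46a1 0.007 and Soat1 0.000225. The Xist term gave Nr1h2 0.00579, Apoe -0.0507, Soat1 0.055 and Npc1 0.0356, and leaving out both libraries gave Hsd17b7 -0.0125, Nr1h2 0.000751 and Stard4 -0.0108. With 1 library left out, Abca1 ran from -0.158 to 0.0107, Apoe from -0.0115 to 0.0935, Cyp46a1 from -0.146 to 0.0635, Hsd17b7 from -0.068 to 0.160, Nr1h2 from -0.061 to 0.0135, Soat1 from -0.109 to 0.0168 and Stard4 from 0.00922 to 0.0894. The causes were not tested. Depth did not limit any member, and 3 mice a group did limit the exact test, whose smallest p is 0.1.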
